A study of Mus musculus with 6 samples.

Results

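The 10 genes described here mark the intermediate progenitors of the cortex and the proneural programme that leads from progenitor to neuron. They are *Neurog1*, *Neurog2*, *Eomes*, *Insm1*, *Neurod1*, *Hes6*, *Btg2*, *Gadd45g*, *Elavl2* and *Mfap4*. They were taken by gene symbol from a table of 59484 features measured by RNA-seq in mouse cortex at embryonic day 18.5. All 10 had a mean of at least 10 normalized counts over the 6 libraries and were among the 18970 features tested. Of these, 9 have a feature of their own, while *Neurod1* is present only in a merged feature with its neighbour *Cerkl*, so that reads of the pair cannot be told apart.

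The study sequenced polyA+ RNA of the whole cortex of C57BL/6 embryos in 3 wild-type and 3 Sam68:Slm2 dKO libraries. The dKO embryos are double knockouts of the genes of Sam68 and SLM2, paralog RNA binding proteins of the STAR family, and the wild-type embryos carry neither deletion. The study's text describes breeding of dKO animals from Sam68+/-:Slm2-/- parents, all of whose offspring lack SLM2, so wild-type embryos cannot come from such litters, and breeding and genotype cannot be told apart. The labels do not give the sex of the embryos. Beyond genotype, all embryos share age, tissue and the polyA+ type of library. The labels do not say whether each library is a separate embryo, and *P*-values measure the spread between these libraries.

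In the developing cortex, radial glia divide at the ventricle and give rise to intermediate progenitors, which divide mainly to produce pairs of neurons. Proneural factors of the basic helix-loop-helix (bHLH) family, such as NEUROG2, bind E-boxes with a partner E protein, commit progenitors to the glutamatergic neuron fate and raise Notch ligands on the cell surface. Notch signalling in the neighbouring cell acts through RBPJ and HES repressors, which hold the proneural genes down. The T-box protein EOMES, also called TBR2, is the usual marker of intermediate progenitors, and NEUROD1 follows it as cells leave the cycle.

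Because proneural proteins bind E-boxes, RBPJ carries the Notch signal and EOMES is itself a T-box protein, the promoters were searched for the letters of these motifs on both strands. RefSeq promoters of assembly GRCm38.p6, each reaching from 250 bases before to 50 bases after a start, were matched for 8 of the 10 genes, in 14 promoters. The 250 bases before the start are shown for 4 of them, the marker *Eomes*, the proneural gene *Neurog2* and the growth arrest genes *Btg2* and *Gadd45g*, which differ in the motifs they hold. They lie on the plus strand at chr9:118477939-118478188 for *Eomes*, chr3:127632886-127633135 for *Neurog2* and chr13:51846425-51846674 for *Gadd45g*, and on the minus strand at chr1:134079156-134079405 for *Btg2*. Capitals mark the E-boxes in *Gadd45g* and, in *Btg2*, the RBPJ core read on the opposite strand.
*Eomes*: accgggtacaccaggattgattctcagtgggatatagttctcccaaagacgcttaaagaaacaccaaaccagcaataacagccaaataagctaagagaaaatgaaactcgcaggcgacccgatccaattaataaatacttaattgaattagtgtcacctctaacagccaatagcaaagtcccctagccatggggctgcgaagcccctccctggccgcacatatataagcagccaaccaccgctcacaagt
*Neurog2*: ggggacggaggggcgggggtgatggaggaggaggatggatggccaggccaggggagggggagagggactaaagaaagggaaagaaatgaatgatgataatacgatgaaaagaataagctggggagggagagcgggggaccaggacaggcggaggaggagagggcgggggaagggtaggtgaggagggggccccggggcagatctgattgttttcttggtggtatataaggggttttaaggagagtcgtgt
*Btg2*: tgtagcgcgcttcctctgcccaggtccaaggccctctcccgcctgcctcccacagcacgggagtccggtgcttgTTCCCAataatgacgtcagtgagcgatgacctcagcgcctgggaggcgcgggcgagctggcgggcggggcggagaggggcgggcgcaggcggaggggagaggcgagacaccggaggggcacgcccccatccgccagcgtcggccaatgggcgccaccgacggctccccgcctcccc
*Gadd45g*: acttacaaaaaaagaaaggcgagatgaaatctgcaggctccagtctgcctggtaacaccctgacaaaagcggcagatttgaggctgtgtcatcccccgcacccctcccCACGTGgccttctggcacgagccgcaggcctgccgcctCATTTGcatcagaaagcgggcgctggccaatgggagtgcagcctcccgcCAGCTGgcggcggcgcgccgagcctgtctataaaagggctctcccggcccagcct
The E-box CANNTG was found in a promoter of 5 of the 8 genes and in 72.3% of all 32851 promoters of this length. For each motif a gene counts if any of its promoters matches, whereas the share of all promoters is per promoter, so the units differ. *Gadd45g* holds 3 E-boxes before its start, the capitals in its sequence, and *Eomes*, *Neurog2* and *Btg2* hold 0 in this window. The proneural form CAGATG, searched on both strands and also counted as an E-box, occurs in 0 of the 8 genes and in 17.2% of all promoters. The RBPJ core TGGGAA was found for *Btg2* and for *Gadd45g*, where it lies after the start, against 25.6% of all promoters. The T-box half-site GGTGTGA was found in 0 of the 8 and in 3.98% of all promoters. These matches describe letters in short windows only, and enhancers farther away were not searched.

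The 6 libraries held between 31837922 and 40896541 reads on the listed features. *Khdrbs1*, which encodes Sam68, lay between 7974 and 8436 normalized counts in wild-type libraries and between 114 and 197 in those of dKO embryos. *Khdrbs3*, which encodes SLM2, had between 12764 and 15215 in wild-type and between 6350 and 7060 in dKO libraries, which fits the labels in direction while leaving transcript of the gene. The cortical markers *Emx1*, *Neurod6*, *Tbr1* and *Bcl11b* were high in every library, from 1125 normalized counts upwards. The hindbrain and midbrain markers *Hoxb2*, *Hoxb3* and *En1* stayed at or under 7.61, and the choroid plexus markers *Ttr* and *Folr1* at or under 14.03. The ganglionic eminence markers were present, *Nkx2-1* from 25.8 to 117 and *Gsx2* from 48.7 to 116 normalized counts. *Nkx2-1* was highest in dKO replicate 2 (117) and wild-type replicate 3 (104). The part of such tissue in the values of the members was not tested. Wild-type and dKO replicates 1 stand apart from the others in one respect. The deviation of a gene from its mean over the libraries rose with transcript length in these 2 (Spearman rho over 14194 genes 0.26 and 0.33) and not in the other 4 libraries (from -0.23 to -0.12), as a description across genes, which are not independent. The members have a median transcript length of 2478 bases, against 3441 for the features tested, and the part of this in their values was not tested. Results are therefore also given without both libraries numbered 1.

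All 10 genes had a higher mean in dKO than in wild-type cortex on the log2 scale, as had 50.6% of all features tested, and the shift was largest for *Neurog2*, *Mfap4* and *Neurog1* and smallest for *Hes6*. None passed the threshold of an adjusted *P*-value under 0.05 over all 18970 features with limma (0 of 10, lowest adjusted p = 0.187), where 0.1% of all features did. An unadjusted *P*-value under 0.05 was reached by 7 of 10, all higher in dKO cortex, against 11.5% of all features in either direction and 4.92% higher. The genes were chosen with earlier results of these data known, so such shares are a description and not an independent test. With count models on the recovered reads, edgeR called 0 of 10 at an adjusted *P*-value under 0.05, against 0.1% of all features, and DESeq2 called 3, against 1.06%. The 7 were *Eomes*, *Neurog2*, *Insm1*, *Neurod1* with *Cerkl*, *Btg2*, *Gadd45g* and *Mfap4*. The 3 of DESeq2 were *Mfap4* (adjusted p = 0.00345), *Btg2* and *Insm1* (adjusted p = 0.0241 each from DESeq2). Every dKO library lay above every wild-type library for 5 of 10 genes, *Neurog2*, *Insm1*, *Neurod1* with *Cerkl*, *Btg2* and *Mfap4*. This was so for 7.89% of all features, and 16.4% did not overlap in either direction. The median log2 fold change of the 10 was 0.49, that of all features tested was 0.00, and 5% of all features lay above 0.42. From RNA of whole cortex alone, more cells of a type and more RNA per cell cannot be told apart. By immunofluorescence at E18.5, the study reported fewer TBR2-positive cells and fewer SOX2-positive progenitors in dKO than in wild-type cortex. Those are counts of cells by protein in sections, and their relation to the RNA levels given here was not tested.

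**Figure D1:**
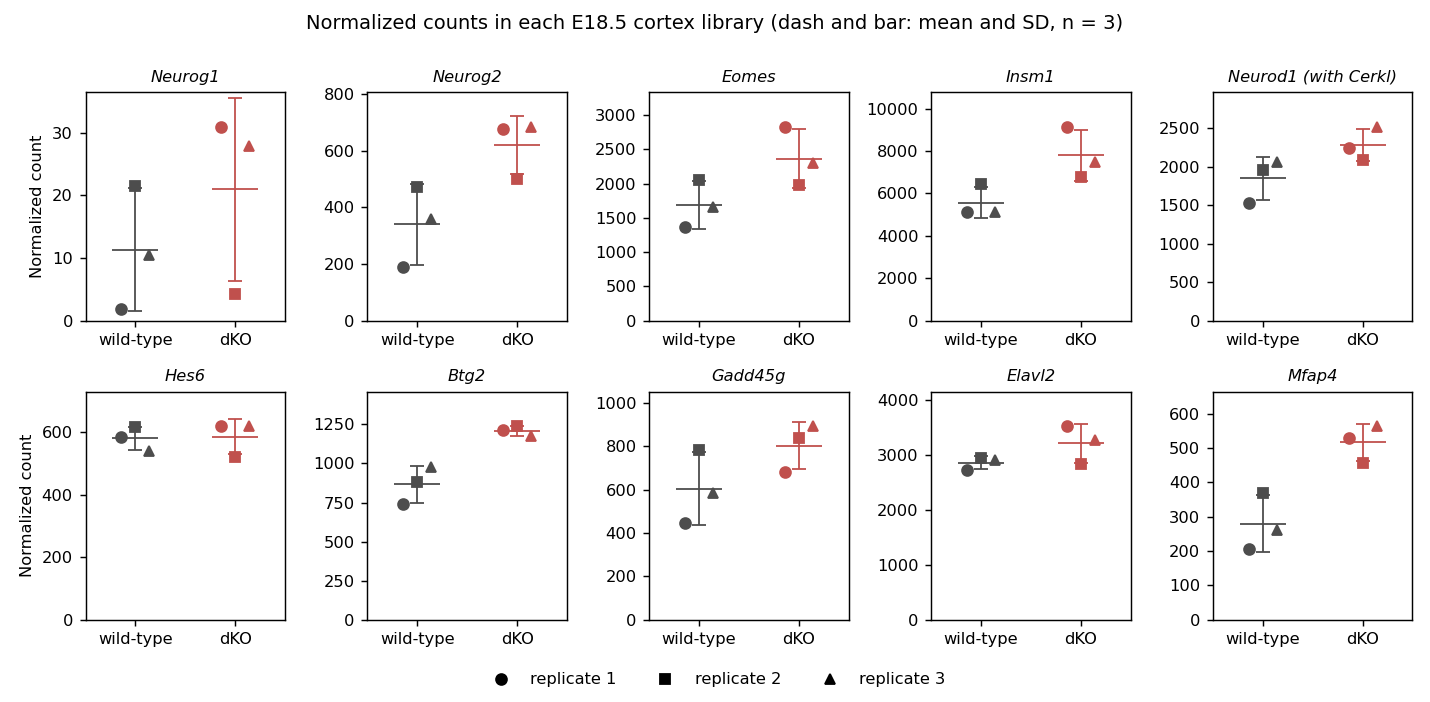
Normalized counts (y axis, from 0) of the 10 genes in 3 wild-type (grey) and 3 dKO (red) libraries, with the replicate number as symbol and the mean and SD as dash and bar. The genotypes are separated for *Neurog2*, *Insm1*, *Neurod1* with *Cerkl*, *Btg2* and *Mfap4*, and wild-type replicate 1 is the lowest of the 6 libraries in 8 of the 10 panels.

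The proneural bHLH factors *Neurog2* and *Neurog1* are the first in the order of action. *Neurog2* (GSMG0024904, chromosome 3 from 127633136 to 127635629) had 189, 472 and 359 normalized counts in wild-type and 677, 501 and 682 in dKO libraries. The genotypes did not overlap, but the highest wild-type library, replicate 2, came within 29.4 counts of the lowest dKO library, also replicate 2. The means were 339.8 ± 142 and 620.0 ± 103 (SD, n = 3 each). On the log2 scale the fold change of *Neurog2* was 0.95 (standard error, SE, 0.30, limma adjusted p = 0.346), with a 95% interval from 0.27 to 1.63. It was 0.51 without both libraries numbered 1 and 0.58 without wild-type replicate 1, and its unadjusted *P*-value was no longer under 0.05 without dKO replicate 1. An unnamed feature that covers nearly the same stretch, from 127632643 to 127635640, averaged 129 normalized counts over wild-type and 175 over dKO libraries (log2 fold change 0.47, limma adjusted p = 0.483). The strand setting of the counting is not given in the sources used here, so reads may be shared between these features.

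*Neurog1* (GSMG0010717, chromosome 13 from 56250162 to 56253216) had the fewest reads of the 10 genes. It had 2, 20 and 12 reads in wild-type and 34, 4 and 24 in dKO libraries, or 1.90, 21.5 and 10.5 against 30.9, 4.18 and 27.8 normalized counts. The genotypes overlapped, since dKO replicate 2 lay below 2 of the 3 wild-type libraries. The log2 fold change of 0.89 (SE 0.89, limma adjusted p = 0.717) had a 95% interval from -1.09 to 2.87 and was within the spread of the libraries. Without both libraries numbered 1 its sign turned, to -0.40.

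*Eomes* and *Insm1* mark and promote the intermediate progenitor state. *Eomes* (GSMG0040206, chromosome 9 from 118478189 to 118487608) had 1359, 2047 and 1659.6 normalized counts in wild-type and 2820, 1973 and 2300.0 in dKO libraries. The genotypes overlapped by 1 library each, as dKO replicate 2 lay below wild-type replicate 2 (exact two-sided permutation p = 0.2, where 0.1 is the smallest value that 3 against 3 allow). The means were 1689 ± 345 and 2364 ± 427 (SD, n = 3 each), a ratio of 1.40. For *Eomes* the log2 fold change was 0.49 (SE 0.16, limma adjusted p = 0.357). Dropping single libraries moved it between 0.34 and 0.64, and it was 0.21 (limma adjusted p = 0.65) without both libraries numbered 1. Its unadjusted *P*-value was no longer under 0.05 there, without dKO replicate 1, with the replicate number as a block (limma adjusted p = 0.453) or with plain limma moderation. An unnamed feature over the start of *Eomes* held 33.8 normalized counts on average in wild-type and 51.5 in dKO cortex, few beside those of the gene.

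*Insm1*, which encodes a zinc finger factor that drives the formation of basal progenitors, lies on chromosome 2 from 146221609 to 146225021 (GSMG0021917). It had 5144, 6426 and 5137 normalized counts in wild-type and 9123, 6795 and 7498 in dKO libraries. All 3 dKO libraries were higher than all 3 wild-type libraries, and dKO replicate 1 was the highest by far. The means were 5569 ± 742 and 7806 ± 1194 (SD, n = 3 each). The log2 fold change of *Insm1* was 0.48 (SE 0.12, limma adjusted p = 0.268), nearly the size of that of *Eomes* with a smaller error. It was 0.31 without both libraries numbered 1.

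*Neurod1*, a bHLH factor of late progenitors and newborn neurons, and *Cerkl*, a gene known from the retina, share the feature on chromosome 2 from 79331765 to 79456636 (GSMG0023034). The feature had 1530.3, 1959 and 2062 normalized counts in wild-type and 2242, 2096 and 2515 in dKO libraries. The genotypes did not overlap, though wild-type replicate 3 and dKO replicate 2 lay within 33.7 counts of each other. This gave a log2 fold change of 0.31 (SE 0.12, limma adjusted p = 0.39). It was 0.19 without both libraries numbered 1 and 0.18 without wild-type replicate 1, and in both fits, without dKO replicate 3 and with plain limma moderation its unadjusted *P*-value was no longer under 0.05.

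*Hes6* encodes a HES family protein that favours neuronal differentiation and counters HES1. It lies on chromosome 1 from 91411482 to 91414038 (GSMG0001894) and is the member nearest to no difference. It had 584, 615 and 540.0 normalized counts in wild-type and 618, 521 and 618 in dKO libraries. The lowest value of all 6 was a dKO library and the genotypes overlapped widely (exact permutation p = 0.8). The log2 fold change was 0.01 (SE 0.12, limma adjusted p = 0.976) with a 95% interval from -0.25 to 0.27, which does not hold the estimates of *Eomes*, *Insm1* or *Btg2*. Whether *Hes6* differed from these genes was not tested.

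*Btg2* and *Gadd45g* restrain the cell cycle, and *Btg2* is known as a mark of progenitors about to divide into neurons. *Btg2* (GSMG0002111, chromosome 1 from 134074865 to 134079155) had 739.9, 879.7 and 979 normalized counts in wild-type and 1212, 1237 and 1176 in dKO libraries. The genotypes were well apart, the dKO libraries lay close together, and the lowest of them was 197 counts above the highest wild-type library. The means were 866 ± 120 and 1209 ± 30.7 (SD, n = 3 each). The log2 fold change was 0.49 (SE 0.11, limma adjusted p = 0.229) and 0.38 without both libraries numbered 1. *Gadd45g* (GSMG0009770, chromosome 13 from 51846670 to 51848475) had 447, 782 and 585 normalized counts in wild-type and 679.7, 838 and 891 in dKO libraries. They overlapped, with wild-type replicate 2 above dKO replicate 1 (exact permutation p = 0.2). The log2 fold change of *Gadd45g* was 0.44 (SE 0.19, limma adjusted p = 0.42), and it was 0.35 without both libraries numbered 1 and 0.24 without wild-type replicate 1. Its unadjusted *P*-value was no longer under 0.05 without wild-type replicate 1 or 3, without dKO replicate 2 or 3, with edgeR and with plain limma moderation.

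Both genes are also known to respond to stress and stimulation, so the immediate early genes were read beside them. Of 11 immediate early genes 10 were matched, of which 5 had a positive and 5 a negative log2 fold change, with a median of -0.06, and their summed level lay between 2972 and 4494 normalized counts in wild-type and between 3781 and 3893 in dKO libraries. At an unadjusted *P*-value under 0.05, 2 were higher and 1 was lower in dKO cortex, against 11.5% of all features in either direction. *Dusp1*, a phosphatase that turns off MAP kinases, was the most clearly higher (0.30, limma adjusted p = 0.368) and *Npas4*, an activity-dependent factor with few counts, the lower (-1.81, limma adjusted p = 0.4). For *Npas4* edgeR gave -1.25 and DESeq2 -1.26, it was -1.10 without dKO replicate 1, and its genotypes overlapped. The median of this list was 0.16 without wild-type replicate 3 and 0.20 without dKO replicate 1. Their part in the values of *Btg2* and *Gadd45g* was not tested.

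*Mfap4* and *Elavl2* complete the set. *Mfap4*, which encodes a secreted protein of elastic microfibrils (GSMG0005306, chromosome 11 from 61485431 to 61488900), had 207, 369 and 261 normalized counts in wild-type and 528, 457 and 563 in dKO libraries. Every dKO library was above every wild-type library, and the smallest gap was 87.5 counts. The means were 279 ± 82.6 and 516 ± 53.8 (SD, n = 3 each). *Mfap4* had a log2 fold change of 0.92 (SE 0.20, limma adjusted p = 0.187). It was 0.70 without both libraries numbered 1 and between 0.72 and 1.14 when single libraries were dropped. Without wild-type replicate 2 it passed the adjusted threshold (adjusted p = 0.0453 from limma), which no other member did in any limma fit. *Mfap4* overlaps the end of *Mapk7* on the opposite strand, which had 5285 normalized counts on average in wild-type and 5527 in dKO cortex (log2 fold change 0.06, limma adjusted p = 0.748).

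*Mfap4* is made by connective tissue too, and markers of meninges and mural cells were therefore read beside it. Of the 10 measured, 0 had a positive log2 fold change, against 50.6% of all features, and the median was -0.51. At an unadjusted *P*-value under 0.05, 2 of these markers were lower and 0 higher. Of all features, 11.5% passed in either direction and 4.92% were higher. Every dKO library lay below every wild-type library for 2 markers, where 16.4% of all features did not overlap in either direction and 7.89% were higher. The summed level of the 10 markers lay between 7795 and 9347 normalized counts in wild-type and between 5741 and 7383 in dKO libraries. The part of these cells in the values of *Mfap4* was not tested. The pericyte gene *Rgs5*, the source of most of the summed level of these markers, had a log2 fold change of -0.31 (limma adjusted p = 0.355).

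*Elavl2* encodes a neuronal RNA binding protein of the Hu family and lies on chromosome 4 from 91250709 to 91399984 (GSMG0028061), the chromosome of the deleted *Khdrbs1* but 38.5 Mb away. It had 2735, 2945 and 2918 normalized counts in wild-type and 3526, 2839 and 3279 in dKO libraries. The wild-type libraries were close together, and dKO replicate 2 lay among them (exact permutation p = 0.3). With these values the log2 fold change was 0.16 (SE 0.09, limma adjusted p = 0.526) with a 95% interval from -0.05 to 0.37. It was 0.06 without both libraries numbered 1, 0.09 without dKO replicate 1 and 0.25 without dKO replicate 2.

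**Figure D2:**
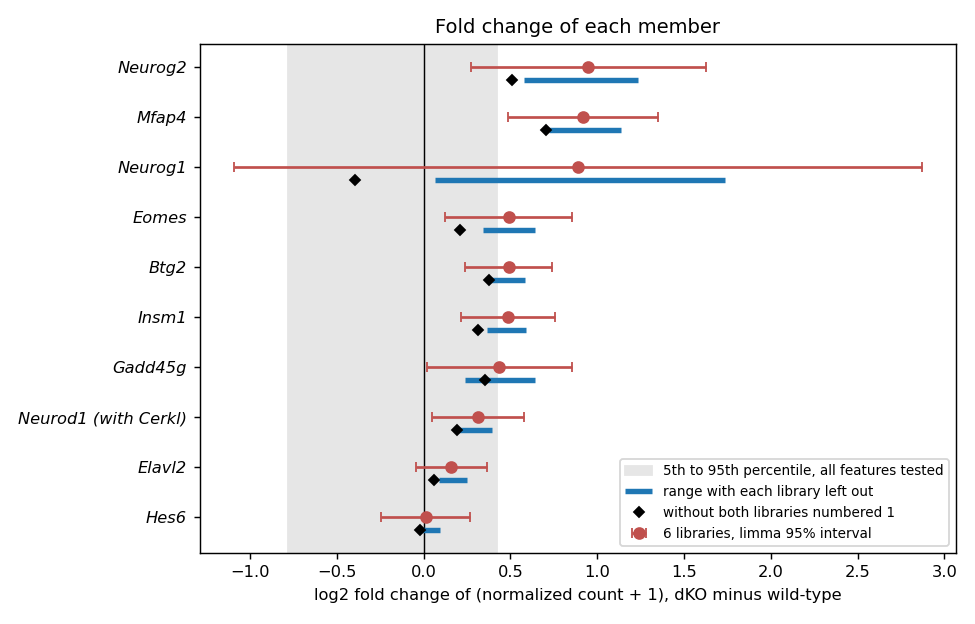
Log2 fold change of (normalized count + 1), dKO minus wild-type (x axis), for each gene, with its limma 95% interval (red), the range when single libraries were dropped (blue), the value without both libraries numbered 1 (black) and the 5th to 95th percentile of all features tested (grey band, -0.78 to 0.42). All black diamonds lie to the left of the red points of their row, with those of *Hes6* at -0.02 and of *Neurog1* at -0.40 and the others above 0.

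All 10 are annotated as protein-coding genes, and their longest transcripts hold from 1 exon in *Neurog1* and *Insm1* to 8 exons in *Elavl2*. Per kilobase of the longest annotated transcript, the levels in wild-type cortex spanned a wide range. *Insm1* was the highest with 1796 normalized counts per kilobase, followed by *Elavl2* with 684, *Neurod1* with *Cerkl* with 678, *Gadd45g* with 564, *Eomes* with 474, *Hes6* with 369 and *Btg2* with 316. *Mfap4* with 158 and *Neurog2* with 153 were lower, and *Neurog1* with 6.70 was the lowest. From *Elavl2* to *Btg2* the wild-type libraries of each neighbouring pair overlapped, so that this order is not settled within their spread, and the same holds for *Mfap4* and *Neurog2*. The steps from *Insm1* to *Elavl2*, from *Btg2* to *Mfap4* and from *Neurog2* to *Neurog1* were larger than the spread. *Neurod1* and *Cerkl* were divided by the length of *Neurod1* alone.

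The libraries of a genotype differed in level over many of the 10 genes. Wild-type replicate 1 was the lowest of all 6 libraries in 8 of 10 genes, as it was in 20.2% of all features, with a median deviation of -0.28 from the wild-type mean on the log2 scale. Wild-type replicate 2 had a median deviation of 0.26, nearly that of dKO replicate 2 with 0.27. The dKO replicates 1 and 3 were higher, with medians of 0.61 and 0.46. Over all features the median deviation lay between -0.002 and 0.006 in each library. Among the dKO libraries, replicate 2 was the lowest in 8 genes, *Btg2* and *Gadd45g* being the others.

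**Figure D3:**
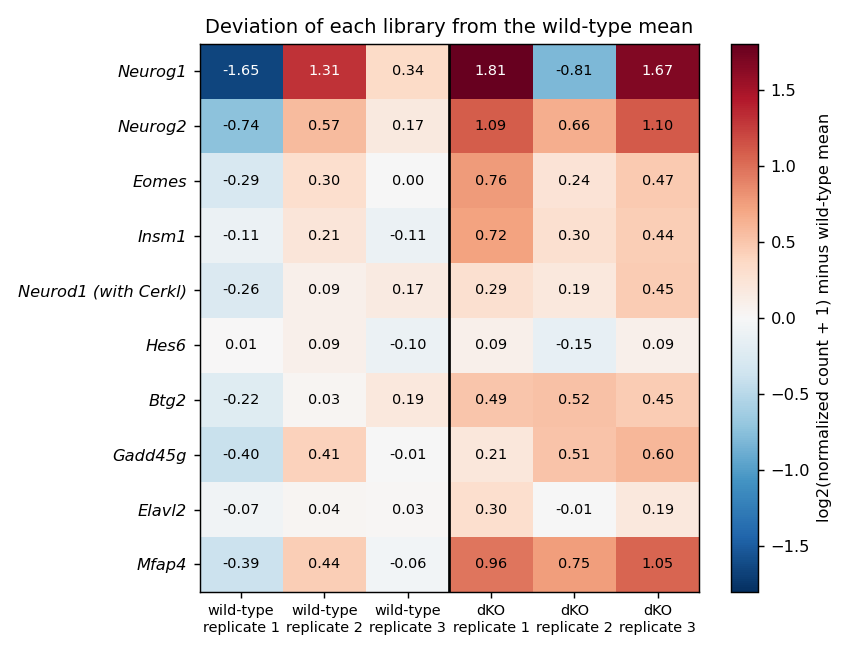
Deviation of each library (columns) from the wild-type mean of log2(normalized count + 1), for the 10 genes (rows), with the value in each cell and on the colour scale. The dKO columns are mostly red, wild-type replicate 1 is blue in 9 rows, and wild-type replicate 2 and dKO replicate 2 hold like values in *Eomes*, *Insm1* and *Neurog2*.

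Among the single libraries, leaving out wild-type replicate 1 moved the median of the set most. The median log2 fold change was 0.29 in place of 0.49, and 5 genes rather than 7, as also without dKO replicate 1 or 3, had an unadjusted *P*-value under 0.05. Without wild-type replicate 1, 3.75% of all features were higher at this threshold. In either direction, 2249 of 18970 features passed it without dKO replicate 1 and 1219 without dKO replicate 3. Without both libraries numbered 1, the median was 0.26 and again 5 genes had an unadjusted *P*-value under 0.05 and were higher, against 5.29% of all features. These were *Neurog2*, *Btg2*, *Gadd45g*, *Insm1* and *Mfap4*, with unadjusted *P*-values from 0.00777 to 0.0497 from limma. Without dKO replicate 2 the genotypes did not overlap in 9 of 10 genes, all higher in dKO, as in 15% of all features, and 30.2% of all features did not overlap in either direction.

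Across the 6 libraries, the levels of the other members were compared with those of *Eomes* on the log2 scale, as a description over 6 points that share their library and genotype. Pearson's r was highest for *Insm1* with 0.96, *Neurog2* with 0.94, *Mfap4* with 0.92 and *Elavl2* with 0.90. It was 0.84 for *Neurog1*, 0.81 for *Neurod1* with *Cerkl*, 0.78 for *Btg2*, 0.70 for *Gadd45g* and 0.47 for *Hes6*. Among 12732 named features with a mean of at least 50, 299 had an r above 0.9, so that such values are not rare. *Insm1* ranked 42nd and *Neurog2* 102nd. The 5 features most like *Eomes* were *Msi1*, an RNA binding protein of neural stem cells, the spindle factor *Tpx2*, the dynein regulator *Nudc*, the kinase *Hunk* and the origin recognition subunit *Orc3*, with r from 0.988 to 0.995. Their log2 fold changes were smaller than that of *Eomes*, from 0.11 to 0.35.

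The genes around this step of neurogenesis were read in lists, for which the same fit gave 0 calls at an adjusted *P*-value under 0.05 in each list. Of all features tested, 50.6% had a positive log2 fold change. An unadjusted *P*-value under 0.05 was found in 11.5% of all features, with 4.92% higher in dKO cortex. All dKO libraries lay above all wild-type libraries in 7.89%. Of 12 further genes of intermediate progenitors and newborn neurons, 12 had a positive log2 fold change and 7 were higher in dKO cortex at an unadjusted *P*-value under 0.05, with a median of 0.34. Their summed level, most of it from *Sox4* and *Sox11*, overlapped between the genotypes. It spanned 162406 to 191573 normalized counts across wild-type and 185000.0 to 255711 across dKO libraries. *Nhlh1*, a bHLH gene of newborn neurons, had 105, 174 and 218 normalized counts in wild-type and 247, 318 and 257 in dKO libraries (log2 fold change 0.78, SE 0.25, limma adjusted p = 0.343). All its dKO libraries were above all its wild-type libraries. *Sox11*, the most abundant, had a log2 fold change of 0.30 (limma adjusted p = 0.413) with overlapping genotypes. The count of 7 dropped to 2, and the median to 0.19, without both libraries numbered 1, and it was 4 with dKO replicate 3 dropped and 10 with wild-type replicate 2 dropped.

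Of 8 differentiation factors of cortical neurons, 8 had a positive log2 fold change, with a median of 0.21, and 4 were higher at an unadjusted *P*-value under 0.05. *Emx1*, a homeobox gene of the dorsal telencephalon, had 1127, 1329 and 1125 normalized counts in wild-type and 1706, 1734 and 1739.8 in dKO libraries. The genotypes were far apart, and the log2 fold change was 0.54 (SE 0.09, adjusted p = 0.09 from limma and 0.000515 from DESeq2). *Tubb3*, the neuronal tubulin, had a log2 fold change of 0.18 (limma adjusted p = 0.385). Their summed level lay between 256336 and 281111 normalized counts in wild-type and between 288383 and 325009 in dKO libraries. The count of 4 ran from 1 without wild-type replicate 3 to 6 without dKO replicate 2.

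The partners and inhibitors of the proneural proteins did not share one direction. Of 10, 5 had a positive log2 fold change and the median was 0.04. The E protein gene *Tcf3*, whose product pairs with proneural factors, had a log2 fold change of 0.21 (limma adjusted p = 0.412), and *Id3*, whose product keeps E proteins from DNA, had -0.49 (limma adjusted p = 0.42) with overlapping genotypes. Neither passed the adjusted threshold, and without both libraries numbered 1 neither had an unadjusted *P*-value under 0.05, nor had *Id3* with the replicate number as a block. *Tcf4*, the most abundant, had 0.16 (limma adjusted p = 0.582). Of 12 Notch ligands, receptors and modulators, 8 had a positive log2 fold change, the median was 0.11 and 2 were higher at an unadjusted *P*-value under 0.05. *Mfng*, which glycosylates Notch, had 319, 493 and 385 normalized counts in wild-type and 502, 494 and 588 in dKO libraries (log2 fold change 0.42, limma adjusted p = 0.39). Its highest wild-type and lowest dKO libraries, both replicates 2, differed by under 1 count. The receptor *Notch1* had 0.20 (limma adjusted p = 0.533), and *Dll3*, a divergent ligand, had -0.24 (limma adjusted p = 0.485).

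**Figure D4:**
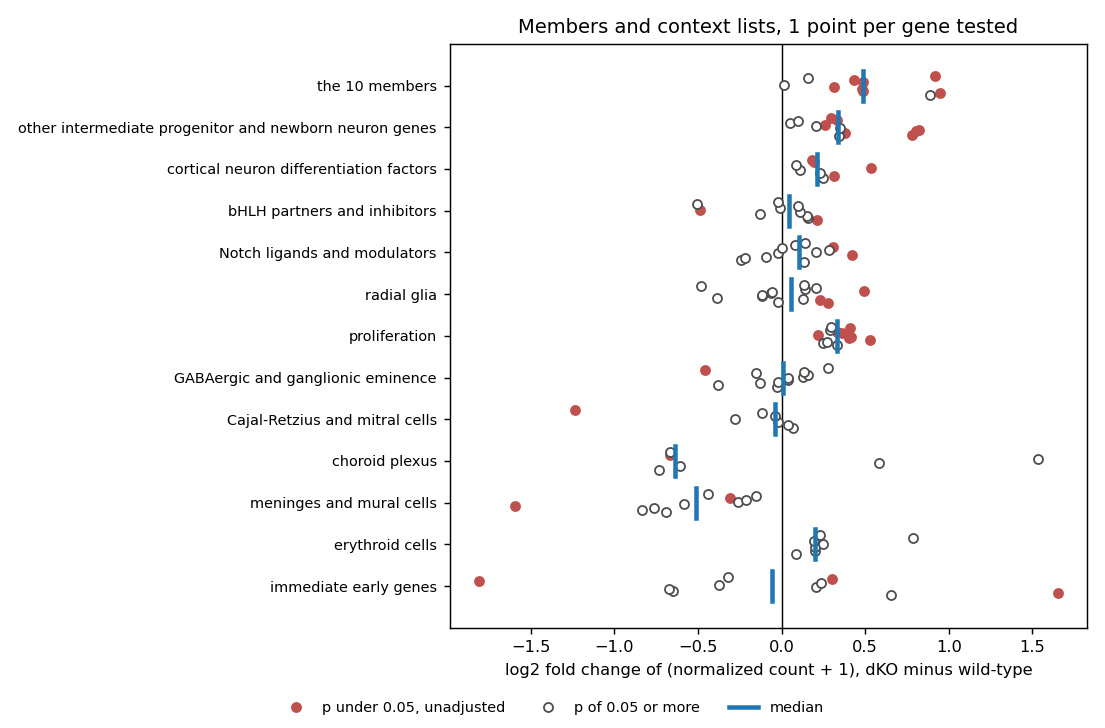
Log2 fold change of (normalized count + 1), dKO minus wild-type (x axis), of each gene tested in the 10 members and in 12 context lists (rows). Filled points have an unadjusted limma *P*-value under 0.05 and blue lines are medians, which are 0.49 for the members, 0.34 for further intermediate progenitor genes, 0.33 for proliferation, 0.05 for radial glia and -0.51 for meninges and mural cells.

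Radial glia, the cells upstream, gave a median of 0.05 over 14 genes, of which 7 had a positive log2 fold change and 3 were higher at an unadjusted *P*-value under 0.05. *Gli3*, a transcription factor of the hedgehog pathway, had 205, 258 and 211 normalized counts in wild-type and 323, 288 and 338 in dKO libraries, with no overlap (log2 fold change 0.49, limma adjusted p = 0.332). *Slc1a3*, a glutamate transporter of glia, had -0.39 (limma adjusted p = 0.495), and *Fabp7*, the most abundant, had -0.11 (limma adjusted p = 0.808). The summed level of the list overlapped between the genotypes, spanning 55296 to 68243 normalized counts across wild-type and 56045 to 69670.2 across dKO libraries. Without both libraries numbered 1, 0 of the 14 had an unadjusted *P*-value under 0.05, and without wild-type replicate 1 there was 1.

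Proliferation genes had a positive log2 fold change in 12 of 12, with a median of 0.33. At an unadjusted *P*-value under 0.05, 7 were higher, against 4.92% of all features. Every dKO library lay above every wild-type library in 8 of the 12, against 7.89% of all features. The summed level of the list lay between 12089 and 14233 normalized counts in wild-type and between 15582 and 16850.3 in dKO libraries. *Ccna2*, the cyclin of S phase, had 986, 1236 and 1178 normalized counts in wild-type and 1543, 1425 and 1547 in dKO libraries (log2 fold change 0.41, SE 0.10, limma adjusted p = 0.263). *Pcna*, the replication clamp, had 0.22 (limma adjusted p = 0.398). The count of 7 was 4 without both libraries numbered 1 and 4 without dKO replicate 3. Their part in the values of the members was not tested.

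Other cell types that the dissection could hold were read in the same way. Of 12 genes of GABAergic neurons and the ganglionic eminence, 6 had a positive log2 fold change, the median was 0.01 and 1 had an unadjusted *P*-value under 0.05, *Sp8* (-0.46, limma adjusted p = 0.352). *Lhx6* had 0.16 and *Dlx1* -0.13, and the summed level lay between 12396 and 16726 normalized counts in wild-type and between 12682 and 17041 in dKO libraries. Of 7 tested genes of Cajal-Retzius and mitral cells, 2 were positive and the median was -0.04. *Cdhr1*, a cadherin of mitral cells, had -1.24 (limma adjusted p = 0.253). It had 83.7, 144 and 132 normalized counts in wild-type and 70.8, 39.7 and 41.8 in dKO libraries, without overlap. With DESeq2, 1 gene of this list, lower in dKO cortex, had an adjusted *P*-value under 0.05, against 1.06% of all features. The most abundant, *Reln*, had 0.07 with overlapping genotypes. The mitral cell marker *Tbx21* stayed at or under 11.4 normalized counts. Mitral cells also express *Eomes*. *Tbx21* had too few counts to be tested, and this list mixes genes of Cajal-Retzius cells with those of mitral cells. The summed level of this list lay between 4348 and 6842 normalized counts in wild-type and between 5060.4 and 5784 in dKO libraries. Of the choroid plexus genes, 6 of 10 had enough counts to be tested, the markers *Ttr* and *Folr1* not among them, and the median was -0.63. It was 0.0027 without wild-type replicate 3, -0.20 without dKO replicate 1 and -0.11 over the 10 with a mean above 0. Their summed level spanned 493 to 802 normalized counts across wild-type and 350.3 to 593 across dKO libraries. Most of it came from *Enpp2*, with 386 to 653 in wild-type and 238 to 390 in dKO libraries. *Lmx1a* had 1.53 (limma adjusted p = 0.472), with 1.0 from edgeR and 1.02 from DESeq2, and *Enpp2* -0.67 (limma adjusted p = 0.357). Of 8 erythroid genes 7 were matched, and all 7 had a positive log2 fold change, with a median of 0.20 and 0 at an unadjusted *P*-value under 0.05. The most abundant, *Hbb-bs*, had 0.20, while the summed level lay between 54090.0 and 67809 normalized counts in wild-type and between 55457 and 80857 in dKO libraries. The part of these cells in the values of the 10 genes was not tested.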

How the data were processed

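RNA-seq of 3 wild-type and 3 dKO libraries of E18.5 cortex was analysed, grouped by the genotype in the labels. The authors deposited 1 signal value per FAST DB feature and library, made from read counts by dividing by one DESeq2 size factor per library, as the table's title says. The submitters' processing notes name STAR 2.7.5a, SAMtools, Picard, FastQC, DESeq2 and the build mm10. The counting program and strand setting are not given in the sources used here. In each library 100% of positive values were whole multiples of 1 read (tolerance 0.01), so reads were recovered.

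Genotypes were compared with limma 3.58.1 (robust empirical Bayes moderation with a mean-variance trend; R 4.3.3) applied to log2 of the normalized count plus 1 for features with a mean of at least 10, with Benjamini-Hochberg adjustment over all 18970 features and a threshold of 0.05. Fold changes are on this scale, and those of low features depend on it and can be smaller or larger than with count models. For single genes, exact permutation tests (two-sided) over the 6 libraries were added. Alternatives were pseudocounts of 0.1 and 10, a mean above 0 or of at least 50, quantile normalization, TMM rescaling, plain limma moderation, the quasi-likelihood test of edgeR 4.0.16 and DESeq2 1.42.0 on recovered reads, a block for replicate number, dropping every library once, and dropping both libraries numbered 1. The fits were tested on simulated counts.

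The members and lists were chosen with earlier results of these data known. The lists covered further intermediate progenitor and newborn neuron genes, cortical neuron differentiation, bHLH partners and inhibitors, Notch, radial glia, proliferation, GABAergic and ganglionic eminence cells, Cajal-Retzius and mitral cells, choroid plexus, meninges and mural cells, erythroid cells and immediate early genes. Named were all members, of each list the smallest *P*-value in each direction and the highest mean, the targeted genes and the 5 features most like *Eomes*. Transcript lengths came from GENCODE release M21 and promoters from RefSeq. Proteins were not compared. A few genes that these rules name are left out of the text.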

Additional observations from a re-analysis of the deposited data

How the results depend on the processing

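The 10 members kept an adjusted *P*-value of 0.05 or more in all fits except DESeq2 on the recovered reads, which called 3 (*Mfap4*, *Btg2* and *Insm1*), and the fit without wild-type replicate 2, which called *Mfap4*. Leaving out each library in turn thus gave from 0 to 1. The count at an unadjusted *P*-value under 0.05, 7 with all libraries, was 4 with plain limma moderation (no trend, not robust) and 5 to 7 when single libraries were dropped. The cause was not tested. Over all 18970 features, 1875 passed this threshold with plain limma moderation and from 1219 to 2714 when single libraries were dropped. The count of members without overlap ran from 5 to 9 when single libraries were dropped, which leaves fewer libraries to be separated each time. It was highest without dKO replicate 2. Of 169 member values under the 17 alternatives, 160 kept direction and side of the adjusted threshold, and 4 newly passed it. No member had passed it in the main fit. Members that lost an unadjusted *P*-value under 0.05 are counted among the 160.

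Signs turned in 5 member values. *Neurog1* was -0.40 without both libraries numbered 1. *Hes6* was -0.038 without wild-type replicate 3, -0.029 without dKO replicate 1 or 3 and -0.023 without both libraries numbered 1, and its single-library range reached 0.094. Of the other named genes, *Fabp7* ran from -0.31 to 0.0053 (without wild-type replicate 3), and *Reln* from -0.23 (without wild-type replicate 3) to 0.22, with -0.05 without dKO replicate 1.

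With the replicate number as a block, 6 members had an unadjusted *P*-value under 0.05 and 0 an adjusted one. Over all 18970 features, 2307 had an unadjusted and 9 an adjusted *P*-value under 0.05 in this fit. *Eomes* was no longer among the members under the unadjusted threshold (limma adjusted p = 0.453). Same-numbered libraries correlated in their deviations by 0.098, -0.228 and -0.079, none above 0.1, so pairing by number was not established. Wild-type replicate 1 correlated best with dKO replicate 1, and the other wild-type libraries with a dKO library of another number. The libraries numbered 1 share the trend with transcript length.

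Among the lists, plain limma moderation left 3 of the further intermediate progenitor genes, 4 of the proliferation genes, 1 of the cortical neuron factors and 0 of the meninges and mural markers at an unadjusted *P*-value under 0.05. That fit gave 1875 of all 18970 features at this threshold. Of the meninges and mural markers, 7 were lower without wild-type replicate 2 and 6 with DESeq2. These fits gave 2714 and 2201 of all features in either direction.

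*Neurog1* had 2 to 34 reads per library, and each genotype has 3 libraries.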
